A study of Rattus norvegicus with 8 samples.

Results

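Interferon regulators and response genes were examined in H9c2 cells, a myoblast line derived from embryonic rat heart that differentiates toward muscle. The set held 9 genes, taken by name: the regulators Irf7, Irf1, Irf9 and Stat2 and the response genes Isg15, Mx1, Mx2, Ifit3 and Oasl. All 9 were on the array, each with 1 probe set, among 23188 probe sets in all, of which 15049 carried 1 gene symbol. The study crossed gravity regime (flight on the International Space Station, or ground culture) with nanoceria, which are cerium oxide nanoparticles studied as antioxidants. Treated cultures received 100 µg/ml of serum-coated nanoceria and untreated cultures none, and all were H9c2 cells in low-serum differentiation medium, fixed on day 10 after seeding. Each of 8 Clariom S Pico arrays for rat took total RNA of 1 sample: 2 arrays held treated space cultures, 1 an untreated space culture, 3 treated ground cultures and 2 untreated ground cultures. Ground cultures followed after the flight, at its recorded temperatures, so gravity regime and culture run cannot be told apart. All cultures came from 1 cell line, so the arrays do not sample different animals.

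Cells that sense viral nucleic acid release type I interferon, which binds its receptor and activates the kinases JAK1 and TYK2. These kinases activate STAT2, which acts with IRF9 in the complex ISGF3 that binds interferon-stimulated response elements (ISREs) in the promoters of responding genes. IRF7, itself a response gene, drives further interferon production, and IRF1 acts mainly downstream of interferon gamma, whose signal reaches gamma-activated sites (GAS) in promoters. Among the responders, ISG15 is a ubiquitin-like modifier, MX proteins are dynamin-like antiviral GTPases, IFIT proteins bind viral RNA, and OAS family proteins belong to the double-stranded RNA response.

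The promoters of Irf7, Irf9, Stat2 and Ifit3 are shown because the first 3 are the members whose space and ground arrays did not overlap, and Ifit3 had the most ISRE cores among the windows searched. Each is the RefSeq window of 250 bases before to 50 bases after the annotated start (assembly GRCr8), read 5′ to 3′ on the strand of the gene. Capitals mark an ISRE core (GAAANNGAA) or a GAS core (TTCNNNGAA), each searched on both strands, and an ISRE core on the opposite strand reads as its reverse complement. These were the only motifs searched, and no match overlapped another.
Irf7, chr1:205799974-205800273, minus strand: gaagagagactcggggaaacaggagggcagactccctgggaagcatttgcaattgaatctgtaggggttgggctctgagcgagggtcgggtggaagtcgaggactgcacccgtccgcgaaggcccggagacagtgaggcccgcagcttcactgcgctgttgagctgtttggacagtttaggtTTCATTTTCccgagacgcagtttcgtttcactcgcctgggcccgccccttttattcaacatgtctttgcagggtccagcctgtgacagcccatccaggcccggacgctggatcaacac
Irf9, chr15:33065586-33065885, plus strand: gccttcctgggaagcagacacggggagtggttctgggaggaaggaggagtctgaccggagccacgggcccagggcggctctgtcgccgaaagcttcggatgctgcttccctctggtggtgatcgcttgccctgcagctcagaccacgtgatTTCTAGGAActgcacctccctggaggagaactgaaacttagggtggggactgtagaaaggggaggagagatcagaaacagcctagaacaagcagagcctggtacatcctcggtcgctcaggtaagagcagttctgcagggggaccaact
Stat2, chr7:1286840-1287139, plus strand: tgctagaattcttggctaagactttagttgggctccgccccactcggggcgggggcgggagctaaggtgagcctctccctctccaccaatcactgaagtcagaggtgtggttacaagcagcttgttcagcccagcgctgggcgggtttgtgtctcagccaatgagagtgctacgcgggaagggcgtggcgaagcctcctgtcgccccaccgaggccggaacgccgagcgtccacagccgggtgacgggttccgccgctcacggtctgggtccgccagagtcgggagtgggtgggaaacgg
Ifit3, chr1:241527076-241527375, plus strand: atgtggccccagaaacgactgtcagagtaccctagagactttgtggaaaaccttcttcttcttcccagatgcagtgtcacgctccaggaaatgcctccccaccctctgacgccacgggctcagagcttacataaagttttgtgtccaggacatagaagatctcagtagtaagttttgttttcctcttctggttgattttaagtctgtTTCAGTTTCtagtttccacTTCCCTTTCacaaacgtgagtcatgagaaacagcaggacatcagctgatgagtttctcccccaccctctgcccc

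The RefSeq table held a window for 7 of the 9 genes and none for Isg15 or Mx2. Irf7 had 1 ISRE core, at -68 to -60 relative to the start, and Ifit3 had 2, at -43 to -35 and -24 to -16. Irf1 had 1 GAS core at -142 to -134 and Irf9 had 1 at -99 to -91. The windows of Stat2, Mx1 and Oasl held neither motif in these letters. An ISRE core was present in 9.715% of all 33465 windows in the table and a GAS core in 8.875%. Among 110 windows of other interferon pathway genes the shares were 39.09% and 20%. A match describes the letters in the window and does not show that a factor binds there.

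The members ran from dim to moderately bright on these arrays. The mean log2 intensity of Stat2 lay at percentile 72.7 of all probe sets, Irf9 at percentile 65.9, Irf7 at 56.2 and Irf1 at 42.5. The probe sets of the response genes were dimmer, with Mx2 at percentile 26.0, Mx1 at 25.9, Isg15 at 19.8, Oasl at 17.2 and Ifit3 at 8.75. Brightness depends on the probes as well as on the transcript, so these positions do not rank the genes by abundance. No detection measure was available, so whether the dim response genes were above background is unknown. Irf7 varied most across the 8 arrays, with a standard deviation (SD) of 0.62 on the log2 scale that lay at percentile 95.0 of all probe sets. Isg15 followed with 0.47, at percentile 87.6.

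Across the arrays, median intensities ran from 107 to 117 and Pearson's r between arrays from 0.959 to 0.992. Ground untreated replicate 3 had been noticed to stand apart from the other arrays in some genes outside the interferon pathway. By mean r with the other arrays it was not the least alike, at 0.97219. Ground nanoceria replicate 1 had 0.97184 and ground nanoceria replicate 3 had 0.97002. Values without ground untreated replicate 3 thus do not cover every array that differed from the rest. Of 10 myoblast and muscle markers measured, the median mean log2 intensity was 8.13, with the brightest (Vim) at 13.8 and the dimmest (Myf5) at 4.15. Among 7 leukocyte markers the median was 5.21, with the pan-leukocyte gene Ptprc at 4.28, Itgam at 4.18 and Cd14 the brightest at 8.17. The 4 endothelial markers lay between 4.43 and 5.97, and the 4 epithelial markers between 3.92 for Epcam and 11.5 for Krt8. Precision was limited by the few arrays, with only 1 for untreated cells in space. In bulk RNA, fewer cells expressing a gene and less RNA per cell cannot be told apart.

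The first comparison set space against ground, with both treatments in 1 fit, to see which genes followed the gravity regime. The regulators Irf7, Irf9 and Stat2 lay lower in every space array than in every ground array, and Irf9 and Stat2 are subunits of ISGF3. The response genes showed no such separation, and Mx2 lay higher in space on average. No member passed the test, since limma called 0% of all probe sets at an adjusted p of 0.05.

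Irf7, the amplifier of interferon production, had log2 intensities of 7.20 and 6.86 in nanoceria-treated cells in space and 6.07 in untreated cells in space. On ground it had 8.20, 7.29 and 7.34 in treated cells and 7.34 and 7.77 in untreated cells. The untreated space array was the lowest of all 8, and the highest space array lay just under the lowest ground array. The means were 6.71 ± 0.58 (SD, n = 3) in space and 7.59 ± 0.39 (SD, n = 5) on ground. The fitted difference, space minus ground with treatment in the model, was -0.90 ± 0.27 (standard error, SE) on the log2 scale, with a limma adjusted p of 0.398. Without the untreated space array it was -0.58 (limma adjusted p = 0.659), and without ground untreated replicate 3 it was -0.78 (limma adjusted p = 0.421).

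Stat2, the subunit of ISGF3 that recruits coactivators, had log2 intensities of 8.34 and 8.29 in treated cells in space and 7.96 in untreated cells in space. Its ground levels were 8.65, 8.35 and 8.53 in treated cells and 8.40 and 8.86 in untreated cells. The space arrays lay below all ground arrays, but the brightest space array and the dimmest ground array nearly touched. The fitted difference was -0.36 ± 0.16, with a limma adjusted p of 0.527. It was -0.19 without the untreated space array and -0.27 without ground untreated replicate 3, the highest array for this gene.

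Irf9, the DNA-binding subunit of ISGF3, had log2 intensities of 7.72 and 7.88 in treated cells in space and 7.67 in untreated cells in space. The ground values were 8.03, 7.93 and 8.16 in treated cells and 8.11 and 7.99 in untreated cells. Both sets of arrays were narrow and did not overlap, but the highest space array (7.88) lay just under the lowest ground array (7.93). The means were 7.76 ± 0.11 (SD, n = 3) in space and 8.04 ± 0.090 (SD, n = 5) on ground, and the fitted difference was -0.29 ± 0.12, with a limma adjusted p of 0.495. Leaving out each array in turn gave -0.35 to -0.24, the narrowest such range among these 3 genes.

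Irf1, the regulator tied most to interferon gamma, had log2 intensities of 6.38 and 6.29 in treated cells in space and 6.20 in untreated cells in space. On ground it had 6.52, 5.95 and 6.36 in treated cells and 6.29 and 6.50 in untreated cells. The space arrays fell within the spread of the ground arrays, and the fitted difference was -0.029 ± 0.16 (limma adjusted p = 0.967). Leaving out each array in turn gave -0.14 to 0.064.

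Among the response genes, Isg15 had 4.44 and 4.47 in treated cells in space and 4.84 in untreated cells in space. Ground arrays gave 5.29, 4.50 and 5.66 in treated cells and 4.44 and 5.16 in untreated cells. The ground arrays spread widely and overlapped the space arrays, and the fitted difference was -0.43 ± 0.29 (limma adjusted p = 0.662). Leaving out each array in turn gave -0.69 to -0.25. Ifit3 had 4.17 and 3.81 in treated cells in space and 4.31 in untreated cells in space. The ground arrays gave 4.31, 4.23 and 4.47 in treated cells and 4.28 and 4.18 in untreated cells. The lowest arrays were the 2 of treated cells in space, while the untreated space array lay among the ground arrays. The fitted difference was -0.19 ± 0.15 (limma adjusted p = 0.697), and -0.34 to -0.050 with each array left out in turn.

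Mx2, an MX family GTPase, had 5.61 and 5.41 in treated cells in space and 5.25 in untreated cells in space. On ground it had 5.03, 4.91 and 5.01 in treated cells and 5.24 and 5.50 in untreated cells. The 3 treated ground arrays were the lowest of all 8, and the other arrays overlapped. The fitted difference was 0.29 ± 0.16 (limma adjusted p = 0.592), opposite in sign to those of the ISGF3 genes, and 0.17 to 0.53 with each array left out in turn.

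Mx1, its paralog, had 5.28 and 5.18 in treated cells in space and 5.23 in untreated cells in space. The ground values were 5.22, 5.43 and 5.47 in treated cells and 5.31 and 4.80 in untreated cells. The space arrays sat within the ground range, whose lowest array was ground untreated replicate 3, and the fitted difference was -0.031 ± 0.15 (limma adjusted p = 0.964). Oasl, a 2′-5′-oligoadenylate synthetase-like gene, had 4.79 and 4.59 in treated cells in space and 4.90 in untreated cells in space. On ground the levels were 5.07, 4.33 and 4.67 in treated cells and 4.70 and 4.60 in untreated cells. The groups overlapped fully, with a fitted difference of 0.089 ± 0.18 (limma adjusted p = 0.892).

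**Figure D1:**
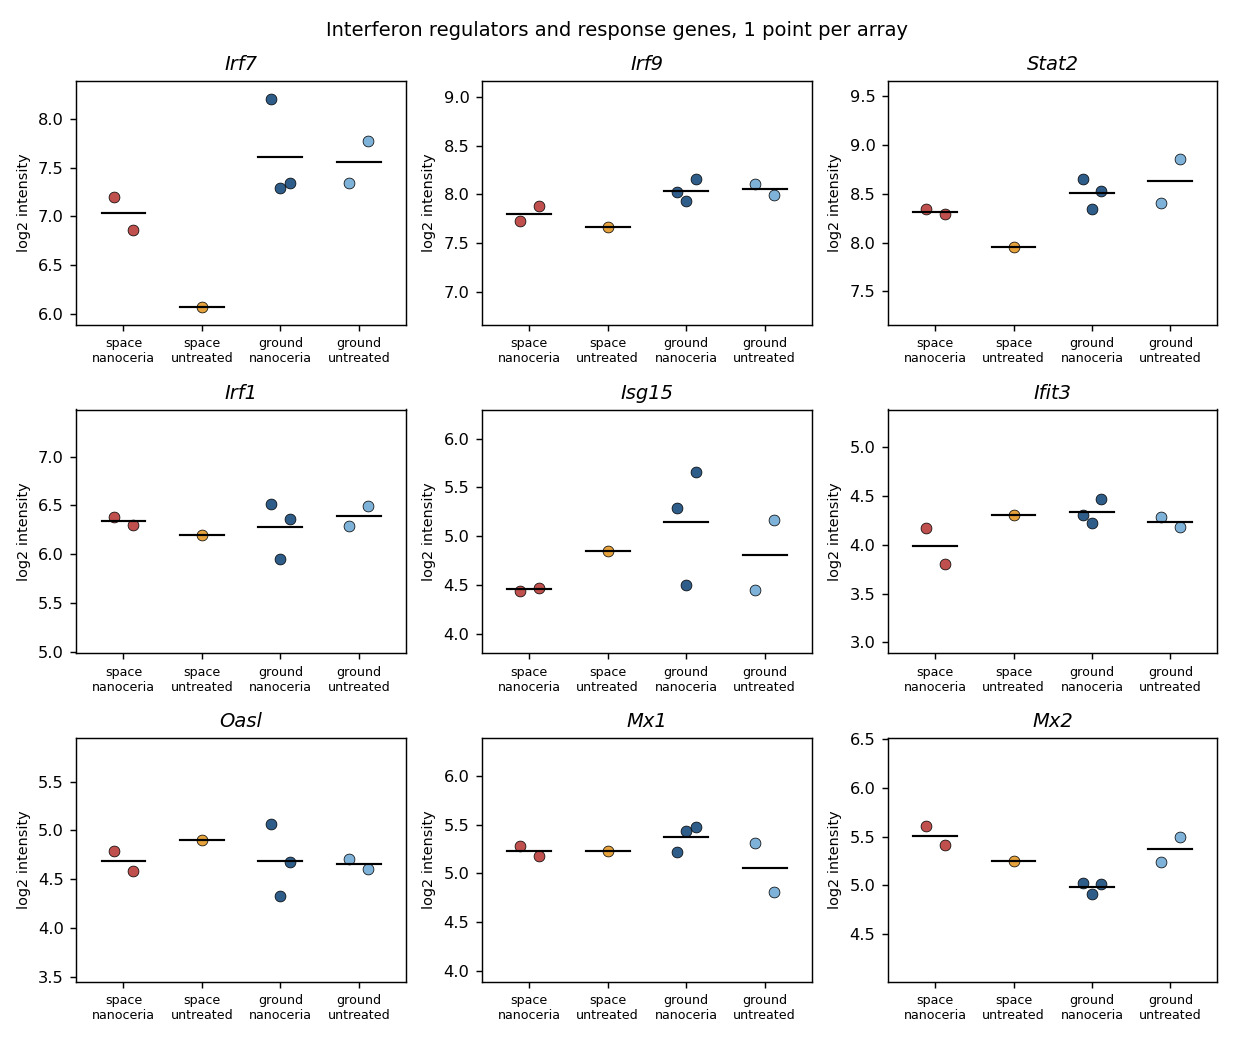
Log2 intensity of each of the 9 genes, with 1 point per array and a horizontal line at the group mean (a single array in untreated cells in space). Panels span equal log2 ranges with different offsets. For Irf7, Irf9 and Stat2 every space point lies below every ground point, and for Mx2 the 3 points of treated cells on ground lie lowest.

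Of the 9 genes, 7 had a lower fitted level in space (5 after cyclic loess scaling, where Irf1 and Mx1 had the opposite sign), with a median difference of -0.19, against 58.7% of all probe sets lower and a median of -0.044 over all of them. Every space array lay below every ground array for 3 of the 9 (2 after cyclic loess scaling, where Stat2 overlapped), against 3.14% of all probe sets. At an unadjusted p of 0.05, 2 of the 9 (Irf7 and Irf9) were lower, against 4.26% of all probe sets. The members were chosen with earlier results of these arrays known, so these counts describe the genes and are no independent support. Over all probe sets, 987 lay lower and 1230 higher at that unadjusted threshold. Among the leukocyte markers, 5 of 7 lay lower in space over both treatments, against 58.7% of all probe sets. Within treated cells 3 of 7 lay lower, and within untreated cells also 3 of 7. The brightest of these markers, Cd14, did not overlap between regimes (-0.66 ± 0.25). The mean log2 level of the leukocyte list was 5.46 to 5.58 in treated and 5.54 in untreated cells in space, against 5.61 to 5.65 in treated and 5.58 to 5.70 in untreated cells on ground, and its part in the differences above was not tested.

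Within each treatment the same comparison rests on fewer arrays. In nanoceria-treated cells, space minus ground was -0.58 ± 0.31 for Irf7, -0.24 ± 0.15 for Irf9 and -0.19 ± 0.19 for Stat2. Isg15 differed there by -0.69 ± 0.36, Ifit3 by -0.34 ± 0.17 and Mx2 by 0.53 ± 0.16. For each of these 6 genes the treated space arrays did not overlap the treated ground arrays, against 31.2% of all probe sets in either direction. Mx2 was the only member that lay higher at an unadjusted p of 0.05, against 5.02% of all probe sets. In untreated cells, where space had 1 array, the difference was -1.48 ± 0.41 for Irf7, -0.67 ± 0.26 for Stat2 and -0.38 ± 0.21 for Irf9. Irf7 and Stat2 were lower at an unadjusted p of 0.05 in untreated cells, against 1.51% of all probe sets. Without ground untreated replicate 3 these values were -1.26 for Irf7 and -0.44 for Stat2. Isg15 differed by 0.042 ± 0.48 and Ifit3 by 0.075 ± 0.23 in untreated cells. In the same arrays 9 of 10 muscle markers lay higher in space, with a median difference of 0.72 (0.46 without ground untreated replicate 3). In treated cells 7 of the 10 lay lower in space, with a median difference of -0.092. Over all probe sets, 58.6% lay lower in space in treated cells (median -0.051) and 54.5% in untreated cells (median -0.025). The part of these markers in the differences of the members was not tested. Limma called 0% of all probe sets in either treatment, with 787 lower and 1163 higher at an unadjusted p of 0.05 in treated cells and 349 lower and 379 higher in untreated cells.

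**Figure D2:**
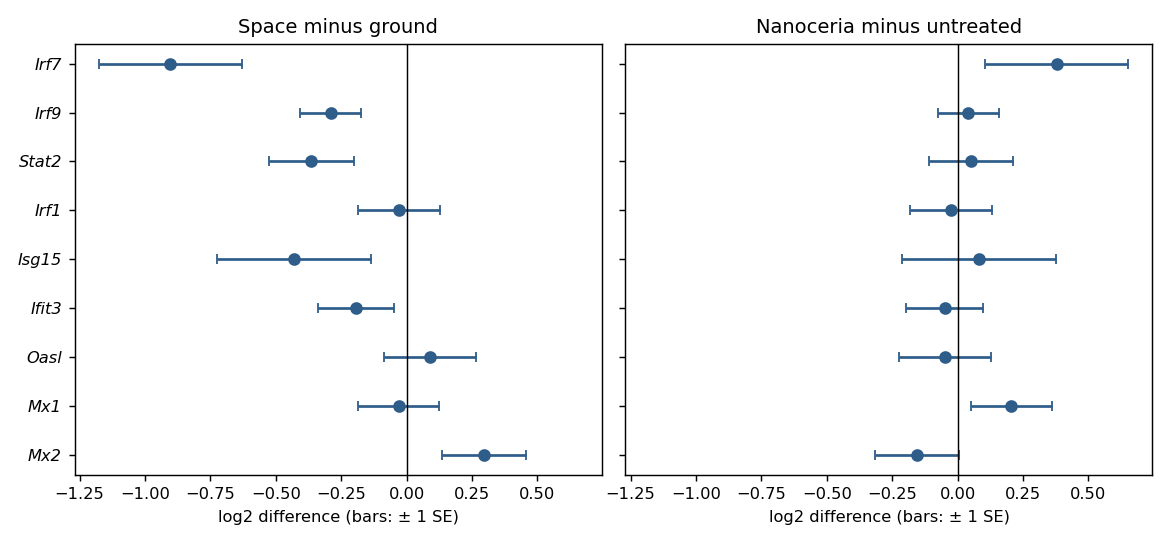
Fitted log2 difference of each gene for space minus ground (left) and nanoceria minus untreated (right), each adjusted for the other factor, with bars of ± 1 SE. Irf7 at -0.90, Isg15 at -0.43, Stat2 at -0.36 and Irf9 at -0.29 lie farthest below 0 for space, and Mx2 at 0.29 lies above it. For nanoceria, Irf7 lies at 0.38, a value that is 0.058 without the untreated space array.

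Nanoceria were compared with no treatment over both regimes to see whether the particles moved the same genes. No member separated by treatment, and the direction was mixed, with 5 of 9 genes higher and a median difference of 0.041, against 0.033 over all probe sets. None of the 9 had treated and untreated arrays that did not overlap, against 4.74% of all probe sets in either direction. Irf7 averaged 7.38 ± 0.50 (SD, n = 5) in treated and 7.06 ± 0.88 (SD, n = 3) in untreated cells, and its fitted difference was 0.38 ± 0.27. That value rested on the untreated space array, since it was 0.058 without it and 0.60 without ground untreated replicate 3. Mx1 differed by 0.20 ± 0.15 (0.034 without ground untreated replicate 3) and Mx2 by -0.15 ± 0.16 (-0.014 without it). Without the untreated space array, Mx1 differed by 0.32 and Mx2 by -0.39. The other 6 genes differed by -0.050 to 0.083. Limma adjusted p-values ran from 0.682 to 0.967 for the members, and 0% of all probe sets were called, with 1359 lower and 874 higher at an unadjusted p of 0.05.

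On ground, Mx2 was the one member whose arrays did not overlap between treatments. Its level averaged 4.98 ± 0.063 (SD, n = 3) in treated and 5.37 ± 0.18 (SD, n = 2) in untreated cells, a difference of -0.39 ± 0.16 with a limma adjusted p of 0.447. Such a separation downward was found for 12% of all probe sets, and Mx2 was also the 1 member of 9 lower at an unadjusted p of 0.05, against 6.57% of all probe sets. Without ground untreated replicate 3 the difference was -0.26 (limma adjusted p = 0.613). All 10 muscle markers lay higher in treated cells on ground (9 after cyclic loess), with a median difference of 0.61 (0.37 without ground untreated replicate 3). Over all probe sets 44.5% lay lower, with a median of 0.038. The mean log2 level of the muscle markers was 8.53 to 8.76 in treated and 7.47 to 8.10 in untreated cells. Whether this accounts for the Mx2 values was not tested. Limma called 0% of all probe sets on ground, with 1523 lower and 1026 higher at an unadjusted p of 0.05, and 1328 lower and 1370 higher when array medians were set equal.

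In space the treated arrays could be set against 1 untreated array only. Irf7 differed by 0.96 ± 0.41 and Stat2 by 0.36 ± 0.26, with both treated arrays above the untreated one, as for 34.4% of all probe sets. Mx2 differed by 0.26 ± 0.22, Isg15 by -0.39 ± 0.48 and Ifit3 by -0.32 ± 0.23. With a single untreated array, a treatment difference and a deviation of that array cannot be told apart. Every limma adjusted p was 1 in this comparison, which called 0% of all probe sets, with 177 lower and 164 higher at an unadjusted p of 0.05.

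The difference between the nanoceria differences in space and on ground was tested as an interaction. It was 0.65 ± 0.27 for Mx2, which lay higher with nanoceria in space and lower on ground, and Mx2 was the 1 member higher at an unadjusted p of 0.05, against 1.44% of all probe sets. Irf7 had an interaction of 0.90 ± 0.52, Isg15 of -0.73 ± 0.60 and Stat2 of 0.48 ± 0.32. Without ground untreated replicate 3 these were 0.68 for Irf7, -1.10 for Isg15, 0.25 for Stat2 and 0.52 for Mx2. Each had a limma adjusted p of 1, and the interaction called 0% of all probe sets, with 210 lower and 335 higher at an unadjusted p of 0.05, and 316 lower and 288 higher when array medians were set equal.

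Elsewhere in the pathway on ground, 16 of 37 antiviral effectors (43.2%) and 7 of 10 sensors and adaptors (70%) lay lower in treated cells. Over all probe sets 44.5% lay lower, so the share of the effectors was near that of the whole array. Eif2ak2, Ifih1 and Ifit2 had the lowest differences in these lists, and Eif2ak2 and Ifih1 were chosen after their values were seen. Some other genes of the response to double-stranded RNA lay on the opposite side, such as Mavs at 0.52 ± 0.17, Oas1b at 0.39 ± 0.17 and Oas2 at 0.30 ± 0.15. Oas1b and Oas2 were dim, at percentiles 18.5 and 8.02 of all probe sets. Tlr3 at -0.33 ± 0.16 and Dhx58 at -0.17 ± 0.18 lay lower. Eif2ak2, which encodes the kinase PKR, had log2 intensities of 5.99, 6.98 and 6.71 in treated and 8.24 and 7.97 in untreated cells on ground. In space it had 7.68 and 7.61 in treated and 7.44 in untreated cells. The 3 treated ground arrays were the lowest of all 8, and the difference on ground was -1.55 ± 0.29 (limma adjusted p = 0.154), or -1.68 without ground untreated replicate 3. Ifih1, the cytoplasmic RNA sensor MDA5, differed on ground by -0.90 ± 0.24 (limma adjusted p = 0.265), or by -0.59 without that array. Ifit2, a paralog of Ifit3, differed by -0.72 ± 0.17 on ground (limma adjusted p = 0.248), or by -0.90 without that array, and by -0.069 ± 0.23 in space. Ifit3 itself differed by 0.10 ± 0.17 on ground.

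**Figure D3:**
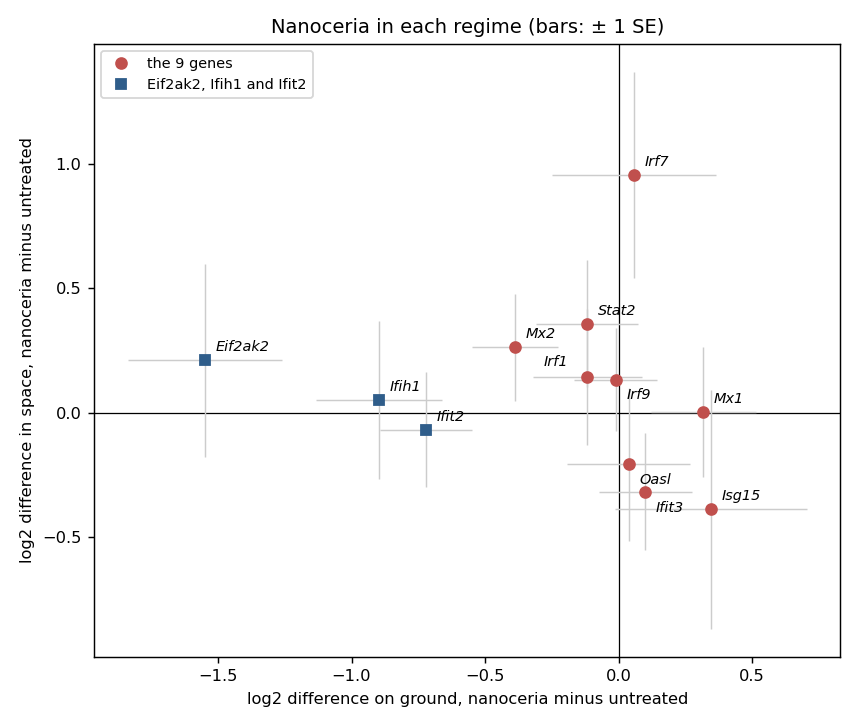
Log2 difference of nanoceria minus untreated on ground (horizontal) against the same difference in space (vertical), with bars of ± 1 SE, for the 9 genes (red circles) and for Eif2ak2, Ifih1 and Ifit2 (blue squares). Irf7 lies at 0.96 in space and 0.058 on ground, and Eif2ak2 at 0.21 in space and -1.55 on ground.

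Likeness between members was measured across the arrays. Of 36 pairs of members, 24 had a positive Pearson's r over the 8 arrays. Irf7 and Stat2 were the most alike, with r = 0.900 (exact permutation p = 0.00642, adjusted over the 36 pairs 0.231) and Spearman's rho = 0.976 (exact permutation p = 3.97e-04, adjusted 0.0143). Without the 2 arrays farthest from the Irf7 median, r was 0.894 over 6 arrays. The permutations moved values freely across the 8 arrays, which mix both regimes and both treatments. A regime difference shared by both genes thus enters these p-values, which do not test a link within regime. Neither the 3 space nor the 5 ground arrays suffice for a value within regime. Mx1 and Mx2 had the lowest value of the 36 pairs, r = -0.61 (exact permutation p = 0.0919).

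The genes most like each member were taken by Pearson's r over the 8 arrays among 8177 genes in the brighter 50% of the array. For Irf7 these were Gfod2 (r = 0.975), Aamdc and Guk1, and for Stat2 they were Dgkq (r = 0.992), Wbp1 and Snapc2. Irf9 was nearest to Zwint (r = 0.976), Ubfd1 and Limd2, and Irf1 to Mrpl53 (r = 0.936), Cacna1g and Pop5. Isg15 was nearest to Fam117a (r = 0.958), Lrrc28 and Gpd1l1, and Ifit3 to Amigo3 (r = 0.956), Aqp2 and Thap11. Mx1 was nearest to Mylk (r = 0.969), Ccsap and Col5a3, Mx2 to Bbs7 (r = 0.940), Nat8b and Alcam, and Oasl to Mrpl51 (r = 0.884), Eef1b2 and Mrpl50. The candidates far outnumber the arrays, so these values are descriptions. None of the genes named here belongs to the interferon pathway lists used here. The members themselves and pathway genes outside the brighter 50%, such as Usp18 at percentile 46.3, could not be named. That absence was thus partly set by the choice of candidates.

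Around the members, 105 of 133 listed genes of the pathway were measured, in 9 lists by role. In space 69 of them had a lower and 36 a higher fitted level than on ground (66 lower after cyclic loess and 76 with equal array medians), with a median of -0.10. That is 65.7% lower, against 58.7% of all probe sets (62.9% against 50.8% after cyclic loess, and 72.4% against 61.7% with equal array medians). None passed the test. At an unadjusted p of 0.05, 6 lay lower and 3 higher, against 4.26% and 5.3% of all probe sets, and 7 lay lower in every space array than in every ground array, against 3.14%. The transcription factors beside the members were mostly lower, 9 of 11 with a median of -0.14. Irf3, the IRF that starts interferon induction, differed by -0.31 ± 0.12, Irf5, which acts downstream of Toll-like receptors, by -0.31 ± 0.11, and neither overlapped between regimes. Among 10 sensors and adaptors 7 were lower, with the DNA-sensing adaptor Sting1 at -0.66 ± 0.35 (-0.43 without ground untreated replicate 3) and the kinase Ikbke at -0.29 ± 0.14.

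The pathway gene with the smallest p for regime was Usp18, the protease that removes ISG15 from proteins and dampens receptor signalling. Its log2 intensities were 5.45 and 6.14 in treated and 6.03 in untreated cells in space, against 7.31, 6.61 and 6.83 in treated and 6.76 and 7.44 in untreated cells on ground. All space arrays lay below all ground arrays, and the difference was -1.10 ± 0.24 (limma adjusted p = 0.334), or -1.01 without ground untreated replicate 3. Ube2l6, which encodes the conjugating enzyme of ISG15, differed by -0.37 ± 0.23 (-0.48 to -0.20 with each array left out). Isg15 itself lay lower on average with overlapping arrays, as given above.

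Over all probe sets, 58.7% were lower in space (50.8% after cyclic loess and 61.7% with equal array medians), beside which each list count is to be read. Of 37 other antiviral effectors 26 were lower in space, with a median of -0.097, and Sp110, a nuclear body protein, differed by -0.40 ± 0.16. Ifit1 at 0.33 ± 0.18 and Ifit2 at 0.43 ± 0.17 (0.30 to 0.66 with each array left out) lay higher in space, whereas Ifit3 lay lower. All 7 chemokines were lower (6 after cyclic loess), with a median of -0.16, and Ccl7, a monocyte attractant, differed by -0.49 ± 0.18 (-0.62 to -0.25 with each array left out), and the chemokine Cx3cl1 by -0.18 ± 0.12. Of 18 antigen presentation genes 11 were lower, or 61.1%, near the share of all probe sets (15 with equal array medians, or 83.3%). The immunoproteasome subunit Psmb10 differed by -0.43 ± 0.18 and the peptide transporter Tap1 by -0.42 ± 0.21. Upstream of the members the pattern was mixed, with 2 of 5 ligands and 2 of 8 receptors and kinases lower. The interferon genes among the ligands were dim, with Ifnb1 at percentile 26.7, Ifng at 21.9 and Ifnk at 12.6. They differed by -0.10 ± 0.17, -0.11 ± 0.12 and 0.075 ± 0.15. The cytokine gene Il15 differed by 0.54 ± 0.34, the interferon gamma receptor gene Ifngr1 by 0.24 ± 0.19 and the kinase gene Tyk2 by -0.19 ± 0.15. The cytokine Il6 lay higher in space by 0.77 ± 0.22 and lower with nanoceria, by -0.91 ± 0.22. Of 7 negative regulators 3 were lower (4 with equal array medians), and Pias1, an inhibitor of STAT signalling, differed by 0.39 ± 0.13, while Cish, another inhibitor of cytokine signalling, differed by -0.50 ± 0.26.

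For nanoceria over both regimes, 50 of the 105 pathway genes were lower and 55 higher, with a median of 0.018 (53 lower with a median of -0.014 after cyclic loess). That is 47.6% lower, against 44.0% of all probe sets (50.5% against 48.8% after cyclic loess). The mitochondrial adaptor Mavs lay at 0.46 ± 0.13 and the kinase Tbk1, which acts below it, at -0.37 ± 0.13. The guanylate-binding protein gene Gbp2 differed by -0.42 ± 0.14, Ifit2 by -0.49 ± 0.17 (-0.72 to -0.32 with each array left out), Pias1 by -0.42 ± 0.13 and Socs3, a feedback inhibitor of JAK kinases, by 0.40 ± 0.18 (0.27 to 0.66 with each array left out). Jak2 differed by -0.31 ± 0.16, Tyk2 by 0.29 ± 0.15, Stat5b by 0.26 ± 0.14, Irf2bp1 by 0.26 ± 0.13 and Psmb10 by 0.35 ± 0.18. The other genes that the rule named, Il15, B2m, Usp18, Ube2l6, Ccl2 and Ccl7, lay between -0.39 and -0.12. None passed the test, with limma adjusted p-values of 0.400 or more for all pathway genes.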

How the data were processed

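RNA from 8 H9c2 samples was measured on 1 array each. The deposited values were 1 linear intensity per probe set and array, made by the authors with RMA per the submitters' processing notes, with software and settings not given in the sources used here. Genome reference Rnor_6.0 is named in the labels' protocols, while promoter windows came from RefSeq GRCr8. Log2 was taken without a pseudocount. Differences were fitted over all 23188 probe sets with limma 3.58.1 in R 4.3.3 (empirical Bayes, Benjamini-Hochberg adjustment, threshold 0.05, two-sided), with regime and treatment as additive terms (5 residual degrees of freedom) for the comparisons over both treatments or regimes, and with a mean for each group (4 residual degrees of freedom) for the others. For untreated cells in space, with 1 array, the spread was taken from the other groups. The labels do not say whether replicates came from separate cultures, so the spread behind each p-value is that between these samples and may be technical.

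All 9 members were named. For each of the 9 pathway lists the rule named the 2 genes with the smallest p for regime and for nanoceria, and 3 like genes per member. A few other pathway genes are given for their role or their values, which were seen. The members, lists, tests and rules were chosen with earlier results of these data known. Alternatives were cyclic loess, array medians set equal, a filter keeping the brighter 66.7% of probe sets, a pseudocount of 16, a trended robust variance, array weights, the replicate number as a block, and leaving out each array. A dimmer probe set per gene was planned, but 0 members had more than 1. Fits were checked on simulated data.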

Additional observations from a re-analysis of the deposited data

Results flagged for a closer look

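For several genes all treated arrays lay on one side of the untreated arrays in space and on the other side on ground, or likewise for space against ground in each treatment. Groups held 1 to 3 arrays, and the share of all probe sets with such a pattern was not counted. Within single comparisons of nanoceria, 34.4% of all probe sets had both treated arrays above the untreated one in space. On ground 12% had all treated arrays below the untreated ones. The interaction that tests the difference had a limma adjusted p of 1 for each gene given here. Among the members, Mx2 differed with nanoceria by 0.26 in space and -0.39 on ground, an interaction of 0.65 ± 0.27 (SE). Ifit3 differed between space and ground by -0.34 in treated and 0.075 in untreated cells, an interaction of -0.42 ± 0.29.

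Outside the members, Eif2ak2 differed with nanoceria by 0.21 in space and -1.55 on ground, and between space and ground by 1.09 in treated and -0.67 in untreated cells, an interaction of 1.76 ± 0.48. Socs3 differed with nanoceria by -0.064 in space and 0.66 on ground, and between space and ground by -0.45 in treated and 0.27 in untreated cells, an interaction of -0.73 ± 0.29. Ccl7 differed with nanoceria by 0.23 in space and -0.44 on ground, an interaction of 0.66 ± 0.32. Irf3 differed with nanoceria by 0.052 in space and -0.22 on ground, an interaction of 0.28 ± 0.25. No group held 4 or more arrays, so no test for a single distant array was made.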

How the results depend on the processing

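Of 63 log2 differences (9 members, 7 comparisons), 41 kept their sign under every alternative run, among them those of Irf7, Irf9, Stat2, Isg15, Ifit3 and Mx2 for space against ground. There were 53 sign changes among 883 values, all of differences that started at 0.35 or less in size, and no member passed the test under any alternative (lowest adjusted p 0.17). The causes of the changes were not tested. For space against ground, limma called 4 probe sets with array weights and 0 to 1 leaving out each array (1 without ground untreated replicate 3 or ground nanoceria replicate 2). For nanoceria on ground it called 0 to 167 leaving out each array (167 without ground untreated replicate 1), and for space in untreated cells 0 to 6 (6 without that array). All other alternatives called 0.

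Leaving out each array gave, for space against ground, -0.14 to 0.064 for Irf1, -0.14 to 0.031 for Mx1 and -0.0084 to 0.21 for Oasl. In treated cells it gave -0.099 to 0.18 for Irf1 and -0.18 to 0.19 for Oasl, and in untreated cells -0.32 to 0.40 for Isg15, -0.085 to 0.43 for Mx1 and -0.25 to 0.0030 for Mx2. For nanoceria over both regimes it gave -0.12 to 0.084 for Irf1, -0.011 to 0.087 for Irf9, -0.12 to 0.23 for Stat2, -0.19 to 0.35 for Isg15, -0.12 to 0.10 for Ifit3 and -0.17 to 0.048 for Oasl. For nanoceria on ground it gave -0.24 to 0.28 for Irf7, -0.24 to 0.045 for Irf1, -0.070 to 0.047 for Irf9, -0.35 to 0.11 for Stat2, -0.015 to 0.71 for Isg15 and -0.15 to 0.22 for Oasl, and in space -0.047 to 0.053 for Mx1.

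Cyclic loess gave 0.012 for Irf1 and 0.021 for Mx1 for space against ground, -0.0022 for Oasl for nanoceria on ground and -0.019 for Mx1 for nanoceria in space. Equal array medians gave 0.030 for Irf9 for nanoceria on ground, -0.0041 for Mx1 for nanoceria in space and -0.032 for Oasl for space in treated cells, where a pseudocount of 16 gave -0.0060. Array weights gave 0.042 for Irf1 for space against ground, -0.22 for Isg15 for nanoceria over both regimes, and -0.025 for Irf7 and -0.076 for Oasl for nanoceria on ground.

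Nothing in the labels says that a replicate number marks a shared batch, so the numbers were not taken to pair samples. Deviations of samples with the same number had r of -0.35 to -0.013 over 5 pairs. Some of these pairs share an array and none holds the untreated space array, so they do not decide whether the numbers mark pairs. With the replicate block, 0 probe sets were called in each comparison. It gave 0.039 for Irf1 for space against ground, 0.092 for Irf1, 0.057 for Ifit3 and 0.11 for Oasl for nanoceria over both regimes, 0.0011 for Irf9 for nanoceria on ground and 0.016 for Oasl for nanoceria in space.

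Of the 9 members, 7 lay lower in space, 5 under cyclic loess, 6 with array weights or the replicate block and 6 to 8 leaving out each array. The members with no overlap were 3, against 2 under cyclic loess and 3 to 4 leaving out each array. Both member counts were added after the data were seen. The filter for brighter probe sets removed the dim members, which then had no value. No measure of signal over background was available, which limits the dim response genes most.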
